A study of Gallus gallus with 36 samples.

Results

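Cytosolic ribosomal proteins are the protein parts of the ribosome that works outside the mitochondria, and their messenger RNAs (mRNAs) were followed here in the pineal gland and the retina of the chicken. Members were taken by gene name: RPL or RPS followed by a number, with or without the endings A, X, L or L1, together with RPLP0, RPLP1, RPLP2 and RPSA, and without the RPS6K kinases. This gave 103 transcripts under 66 names, out of 13483 names, or 67 of 17934 Ensembl gene identifiers, in the tables. Of the names, 41 belong to the large subunit and 25 to the small subunit. A single transcript stood for 38 names and several for 28, and the most counted transcript stands for a name wherever a gene is named below.

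A ribosome is built of a small subunit, which reads the mRNA, and a large subunit, which joins amino acids, and each ribosomal protein is needed in about equal numbers with the others. In vertebrates the mRNAs of these proteins share a start of pyrimidines, the terminal oligopyrimidine tract, through which the kinase mTOR and the binding protein LARP1 set how strongly they are translated. In mouse liver their translation is known to follow the time of day, while their mRNA levels stay nearly flat. Levels of mRNA alone were measured in the present series.

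The study asked which transcripts of the 2 tissues follow circadian time. Newly hatched chicks from the breeder Hyline International were kept for 9 days with light for 12 h and dark for 12 h, and the light stayed off on day 10. Glands and retinas were then collected from the start of subjective day, at circadian time (CT) 0, 4, 8, 12, 16 and 20. A pineal library pooled 3 glands and a retina library came from a single retina, with 3 libraries in each of 12 groups, 36 in all. No genotype, sex or drug is given for any group, and all groups share the light history and the single cycle in darkness. Pineal libraries held 6583163 to 9434608 counts and retina libraries 4994388 to 8122277. Nothing in the labels says how independent the replicates of a group were, so p-values measure the spread between these libraries, which may in part be technical.

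The tissue labels were checked against marker genes, in CPM, a transcript's share of its library's counts in parts per 1e6, scaled with TMM, a method that evens out library composition. The pinealocyte genes AANAT, TPH1 and ASMT summed to 9148 to 33453 CPM in the pineal libraries and to 240 to 384 CPM in the retina libraries. The Müller glia genes SLC1A3, GLUL and RLBP1 summed to 690 to 981 CPM in pineal and to 4332 to 5326 CPM in retina. By mean, GLUL (261 against 3659 CPM) and SLC1A3 (52.0 against 546 CPM) were lower in pineal. RLBP1 did not separate the tissues, at 523 ± 59.7 CPM in pineal and 534 ± 75.3 CPM in retina (SD, n = 18). TTR, a marker of the choroid plexus that lies next to the gland, ran from 982 to 43683 CPM in pineal libraries and was lowest in 3 of them, replicates 1 and 3 at CT12 and replicate 1 at CT20. Pineal results are therefore also given without these 3 libraries where that changes them.

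The family took a larger share of all counts in the pineal gland than in the retina, in every library. The summed share of the 103 transcripts was 2.38% ± 0.138 (SD, n = 18) in pineal, from 2.18 to 2.62%, and 1.66% ± 0.0606 (SD, n = 18) in retina, from 1.57 to 1.77%. The ranges did not overlap. Large-subunit transcripts made up 1.39% ± 0.0798 and small-subunit transcripts 0.991% ± 0.0591 of pineal counts, against 0.999% ± 0.0363 and 0.659% ± 0.0250 of retina counts. The ratio of large to small was 1.41 ± 0.0159 in pineal and 1.52 ± 0.0168 in retina (coefficients of variation 1.13% and 1.11%), and the highest pineal ratio of 1.43 lay below the lowest retina ratio of 1.48.

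**Figure D1:**
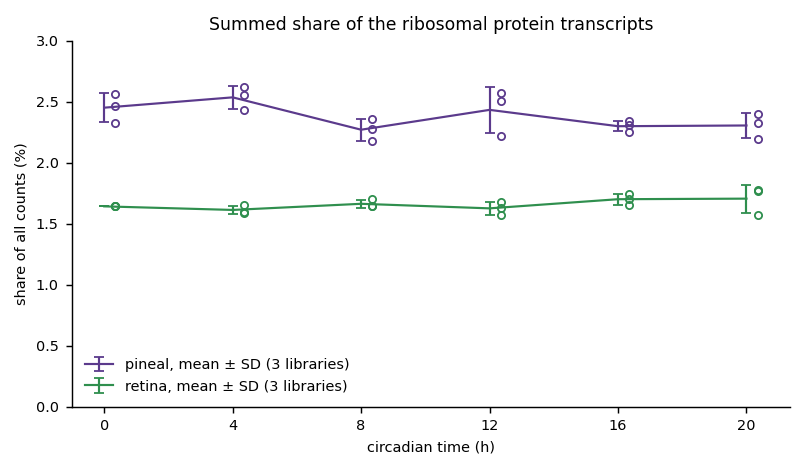
The summed share of all counts (%, vertical axis) taken by the 103 transcripts is plotted against circadian time (h, horizontal axis) for pineal (purple) and retina (green); lines join means of 3 libraries, bars are ± SD and open points, shifted to the right, are single libraries. Pineal libraries lie between 2.18 and 2.62% and retina libraries between 1.57 and 1.77%, with no overlap at any time.

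Gene by gene, nearly the whole family was higher in the pineal gland. Of 94 member transcripts tested over all 36 libraries, 82 were higher in pineal (edgeR's quasi-likelihood test, Benjamini-Hochberg adjusted p below 0.05), where 43.2% of all 16831 tested transcripts were called higher, and 3 were lower, where 39.5% were called lower. The other 9 transcripts of the family were too low to be tested, and 3 of all 103 had no count in any library. By name, 63 of 66 were higher, 3 were lower and none was left uncalled by this test. In it 85 of the 94 transcripts had an unadjusted p below 0.05, where 83.3% of all tested transcripts had. The median log2 difference over names was 0.47, with the middle 50% between 0.36 and 0.61, against 0.04 over all tested transcripts. In 48 of 66 names each of the 18 pineal libraries lay above each of the 18 retina libraries, which held for 3668 of the 16831 tested transcripts.

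The 3 subunit proteins of the stalk, which draws elongation factors to the ribosome, show the size of the shift. RPLP0, the base of the stalk, ran from 498 to 631 CPM with a median of 558 in pineal and from 367 to 438 with a median of 390 in retina. Its log2 difference was 0.52 ± 0.03 (SE), and the libraries did not overlap (adjusted p = 5.0e-17). RPLP2, an acidic tip protein, stood at 151 ± 12.0 CPM in pineal and 94.3 ± 5.74 CPM in retina (SD, n = 18), a log2 difference of 0.67 ± 0.03. RPLP1, its partner, differed less, by 0.38 ± 0.04, and only 14 of 18 pineal libraries lay above all retina libraries. All 3 stalk members were thus higher in pineal, and whether they differed from each other was not tested.

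Of all 16831 tested transcripts, 3814 were at least 2-fold higher in pineal. Differences of that size and direction were found for 7 of 66 names. RPS16, a small-subunit protein (chromosome 1, 41630324 to 41633386 as the deposited tables give it), had the largest: it ran from 297 to 395 CPM with a median of 361 in pineal and from 124 to 148 with a median of 142 in retina, a log2 difference of 1.33 ± 0.03 (adjusted p = 2.0e-25). All pineal libraries lay above all retina libraries. RPL29, of the large subunit, followed with 59.9 ± 4.97 CPM in pineal against 25.8 ± 2.71 in retina, a log2 difference of 1.21 ± 0.05. RPL12, which sits at the base of the stalk, stood at 169 ± 12.3 against 77.1 ± 5.05 CPM (1.13 ± 0.03). RPL37 (1.11 ± 0.02), RPL10A (1.08 ± 0.02), RPS27L (1.08 ± 0.04) and RPL35A (1.04 ± 0.03) completed the 7. In all of them the tissues did not overlap.

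Just under that size lay 3 proteins of the small subunit. RPS2 stood at 603 ± 45.6 CPM in pineal and 326 ± 20.2 in retina (SD, n = 18), a log2 difference of 0.88 ± 0.03. RPS27A, made as a fusion with ubiquitin, stood at 215 ± 15.5 against 118 ± 6.93 CPM (0.86 ± 0.03), and RPS23, a protein of the decoding centre, at 386 ± 25.1 against 214 ± 10.4 CPM (0.85 ± 0.03). RPS6, the member that S6 kinases phosphorylate, stood at 1205 ± 66.5 against 686 ± 29.1 CPM, a log2 difference of 0.81 ± 0.02. RPSA, known also as the laminin receptor precursor, stood at 761.8 ± 58.8 against 533 ± 33.0 CPM, a difference of 0.51 ± 0.03. By subunit, the median log2 difference was 0.51 over 25 small-subunit names and 0.45 over 41 large-subunit names. RPL4, at 0.18, was the smallest of the higher names.

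**Figure D2:**
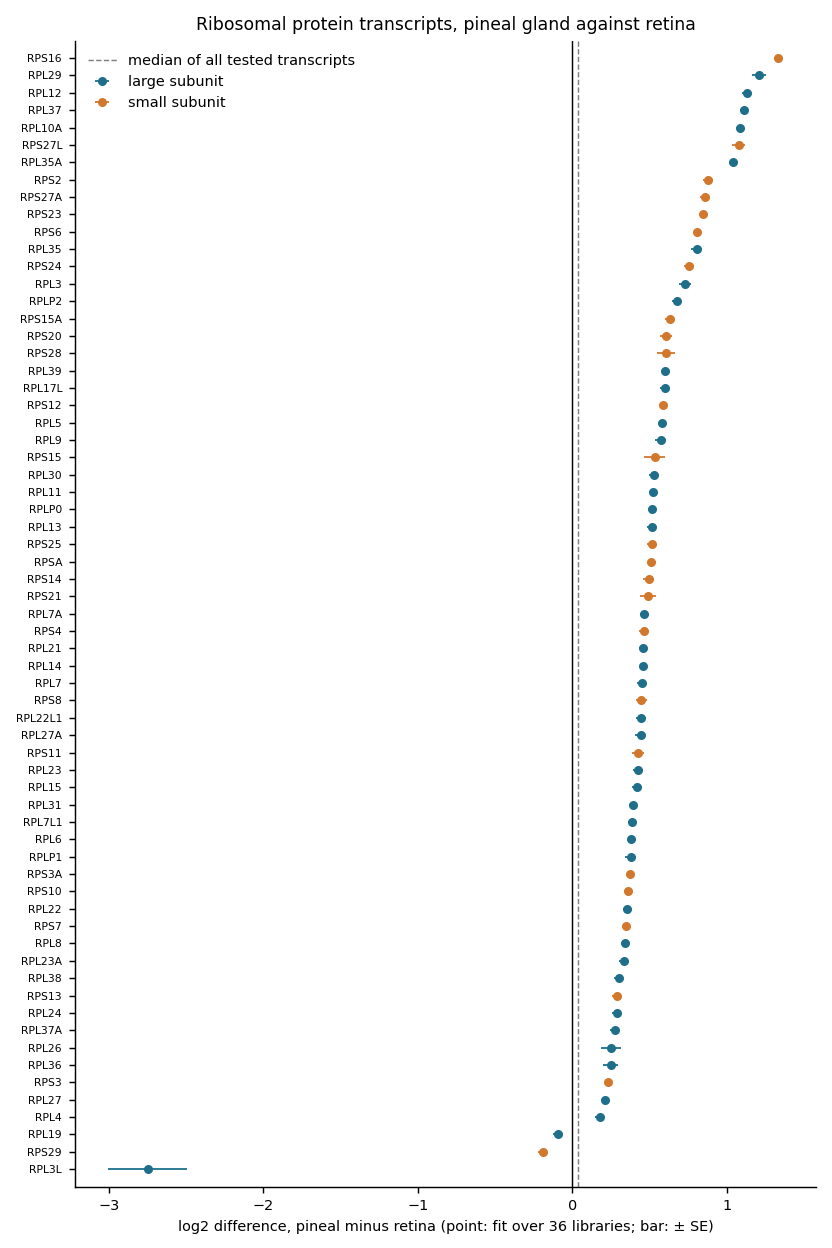
Each row is a ribosomal protein name and its point is the log2 difference of pineal minus retina (horizontal axis) from the fit over 36 libraries, with bars of ± SE, blue for the large and orange for the small subunit; the dashed line is the median of all tested transcripts, 0.04. All but 1 of the 66 names are drawn; RPL19, RPS29 and RPL3L lie below 0 and the other points above it, up to 1.33 for RPS16.

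Only RPL3L, RPS29 and RPL19 were lower in the pineal gland. RPL3L, a copy of RPL3 known in mammals from heart and skeletal muscle, was close to 0 in both tissues: it ran from 0 to 0.673 CPM in pineal and from 0.696 to 3.15 CPM in retina, with at most 20 counts in a library and 1 pineal library at 0. All 18 pineal libraries lay below all retina libraries (log2 difference -2.75 ± 0.25, adjusted p = 6.7e-11). RPS29, a small zinc-binding protein of the small subunit (chromosome 5, 60156591 to 60157091), stood at 129 ± 8.37 CPM in pineal and 147 ± 6.91 CPM in retina, a log2 difference of -0.19 ± 0.03 (adjusted p = 4.5e-07), with 15 of 18 pineal libraries below all retina libraries. RPL19, which bridges the subunits, stood at 447 ± 29.3 against 475 ± 29.9 CPM, with overlapping libraries and a log2 difference of -0.09 ± 0.03 (adjusted p = 0.0073) that ran from -0.20 to 0.04 over the 6 times and was not called without the 3 pineal libraries lowest in TTR (-0.07, adjusted p = 0.054). On the deposited FPKM scale (counts per length and library size), where the median of all transcripts moved from 0.04 to 0.20, RPS29 and RPL19 turned to 0.02 (adjusted p = 0.57) and 0.11 (adjusted p = 0.0015), both still below that median.

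The difference held at each time: by mean level, 63 of 66 names were higher in pineal than in retina at all 6 circadian times. A like count over all tested transcripts was not made, so this is not shown to be particular to the family. Without the 3 pineal libraries lowest in TTR the median over names was 0.49. Within a bulk tissue, fewer cells of a type and less RNA per cell cannot be told apart, and the same holds for the reverse. Other cell types differed with the tissue as well: the leukocyte genes PTPRC, CSF1R and CD3E (3 of 5 listed names were measured) summed to 152.5 to 380 CPM in pineal and to 42.2 to 79.4 CPM in retina, where CD3E, the T cell gene, was at 0 to 0.711 CPM. Genes of dividing cells (MCM2, MKI67, TOP2A and PCNA, 4 of 5 listed names) summed to 198 to 266 CPM in pineal and to 79.8 to 93.1 CPM in retina. Their part in the result was not tested.

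Levels were compared between members on the FPKM scale, summed over the transcripts of a name. The median over 66 names was 756.1 in pineal and 467 in retina, with the middle 50% from 505 to 1003 and from 306 to 642. The highest FPKM in pineal belonged to RPLP1, at 1764 ± 125 (SD, n = 18), followed by RPS27L at 1650 ± 169, RPL29 at 1574 ± 139, RPS6 at 1552 ± 108 and RPL37A at 1483 ± 104. Neighbours in this order differed by less than the larger SD of the pair. In retina the order began with RPS29 at 1239 ± 56.4, RPLP1 at 1156 ± 97.3, RPL37A at 1085 ± 52.5, RPL19 at 860 ± 44.1 and RPL27 at 855 ± 48.0, where only RPL37A and RPL19 differed by more than their spread. RPS27L and RPL29, at rank 2 and 3 in pineal, were at rank 14 and 19 in retina, while RPL19 was at rank 21 in pineal and 4 in retina. Other names changed rank as well, among them RPS23 (17 in pineal, 32 in retina) and RPS16 (42 and 56). Over all 66 names the levels went together: Pearson's r of log2 FPKM was 0.96 and Spearman's rho 0.95. Without RPL3L r was 0.95. The points share gene lengths and the authors' estimation.

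The same 5 names were lowest in both tissues, and 3 of them are copies of other members. RPL3L had an FPKM of 0.241 in pineal and 1.40 in retina beside RPL3, a protein near the catalytic centre, at 603 and 320. RPL7L1 stood at 98.0 and 66.0 beside RPL7 at 890 and 574, so that it made up 9.92% of the pair in pineal and 10.3% in retina. RPL22L1 stood at 118 and 76.3 beside RPL22 at 614 and 417, or 16.1% and 15.5% of the pair. The shares of RPL7L1 and RPL22L1 in their pairs thus lay close together in the 2 tissues, a difference that was not tested. RPL35A (266 ± 22.5 and 113 ± 4.92) and RPS28 (268 ± 31.8 and 149 ± 9.87) completed the lowest 5. Because reads of near-identical copies and pseudogenes could be shared between them by the authors' estimation, levels of single members are uncertain.

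The estimation also split counts between transcripts of a name. In RPL26 the most counted of 4 transcripts held 37.9% ± 5.07 of the counts in pineal and in RPL36 the larger of 2 held 55.7% ± 6.05, whereas in RPS3A, RPS6 and RPSA a single transcript held all. A second RPL7A transcript was at 0 in 15 of 36 libraries and reached 575 counts in others, and a second RPS4 transcript was at 0 in 13 and reached 362. The 9 member transcripts tested between tissues and called neither way were all minor transcripts of their names. Summed per Ensembl gene, the median over names was 0.44.

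Over circadian time the family was nearly flat. In the pineal gland 2 of 92 tested member transcripts, RPS10 and RPL14, followed a 24 h curve (edgeR's quasi-likelihood F test, adjusted p below 0.05), or 2.17%, where 21.1% of all 16070 tested transcripts did. In the retina 0 of 93 did by the same test, where 6.29% of 14956 did. There 8 members had an unadjusted p below 0.05, where 16.2% of all tested transcripts had. DESeq2 called 1 member in retina, RPLP1, where it called 8.49% of all. The median amplitude (peak to mean, log2) over names was 0.055 in pineal and 0.045 in retina, against 0.14 and 0.09 over all tested transcripts. Among transcripts of at least 100 CPM, the medians were 0.055 for 59 names and 0.094 for all in pineal, and 0.044 for 52 names and 0.052 for all in retina. The largest pineal amplitude of a name was 0.10.

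RPS10, a protein of the small subunit's beak (chromosome 26, 4209930 to 4216176), was highest by day in the pineal gland. Its 3 libraries stood at 355, 368 and 354 CPM at CT0, at 367, 358 and 360 at CT4 and at 340, 330 and 379 at CT8. They stood at 327, 344 and 348 CPM at CT12, at 333, 327 and 311 at CT16 and at 302, 334 and 336 at CT20. All libraries of CT0 and CT4 lay above all those of CT12, CT16 and CT20. The fitted curve had an amplitude of 0.09 ± 0.02 (log2, SE), a peak at CT 4.36 and a peak-to-trough fold of 1.12 (adjusted p = 0.021); with time as a factor of 6 levels the adjusted p was 0.10, and without replicate 3 at CT16 it was 0.053.

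RPL14, a large-subunit protein (chromosome 2, 41194423 to 41197565), had a like shape in pineal. It stood at 289, 312 and 298 CPM at CT0, at 304, 305 and 312 at CT4 and at 274, 266 and 279 at CT8. The later values were 261, 307 and 277 CPM at CT12, 268, 275 and 262 at CT16 and 258, 277 and 272 at CT20. Values at CT0 and CT4 were above those of CT8, CT16 and CT20 in every library, while CT12 spanned both. Amplitude was 0.09 ± 0.02 with a peak at CT 3.11 (adjusted p = 0.047), a call lost when any of 13 of the 18 libraries was left out (adjusted p up to 0.10) and without the 3 libraries lowest in TTR (adjusted p = 0.13). Next in order of p came RPL7L1 and RPL19, with amplitudes of 0.06 and 0.08 and adjusted p of 0.096 and 0.11 by edgeR, neither past the threshold. RPL19 was past it in 5 of 12 alternatives, with DESeq2 (adjusted p = 0.047), each limma setting (0.030) and the replicate block (0.032).

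In the retina the 5 members of smallest p were RPL10A, RPLP1, RPS13, RPL11 and RPL38, with amplitudes of 0.06 to 0.11 and edgeR adjusted p of 0.11 to 0.24. RPLP1 had an amplitude of 0.11 ± 0.03 and a peak at CT 17.5 (adjusted p = 0.13). It was past the threshold with DESeq2, on the FPKM scale and without replicate 1 at CT16 (adjusted p = 0.038). RPS13, of the small subunit, had its fitted peak at CT 7.98, on the other side of the cycle.

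Night was then set against day, CT16 and CT20 against CT4 and CT8, with 6 libraries each. In the pineal gland 0 of 92 member transcripts were higher at night, where 8.36% of all tested transcripts were. Lower was 1, RPS10, where 6.66% of all were. An unadjusted p below 0.05 was found for 15 members, where 27% of all had such a p. DESeq2 called 0 members higher and 6 lower, where it called 1495 and 1268 of all 16070. RPS10 ran from 302 to 336 CPM at night and from 330 to 379 CPM by day, so the groups overlapped, with 3 of 6 night libraries below all day libraries. Its log2 difference of -0.13 ± 0.04 (adjusted p = 0.022) moved to -0.11 (adjusted p = 0.071) without the 3 libraries lowest in TTR. RPL14 (-0.11 ± 0.04), RPL19 (-0.13 ± 0.05), RPS12 (-0.13 ± 0.05) and RPL38 (-0.15 ± 0.06) followed with edgeR adjusted p of 0.062 to 0.092.

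Small as they were, the pineal differences mostly pointed the same way. The night-minus-day difference was below 0 for 59 of 65 names, among them all 25 of the small subunit and 34 of 40 of the large subunit, with a median of -0.08; over all 16070 tested transcripts 49.8% were below 0 and the median was 0.00. With total counts alone as the scale 57 of 65 were below 0, and without the 3 libraries lowest in TTR 56 were, with a median of -0.05. Setting CT12, CT16 and CT20 against CT0, CT4 and CT8 gave 57 below 0 and a median of -0.05. Leaving out single libraries gave pineal medians from -0.096 to -0.056. On the TMM scale the mean summed level was 25092 CPM at CT4 and 23072 at CT8, against 23117 at CT16 and 22470 at CT20. In that sum only CT4 of the day times stood above the night times, while CT8 lay between CT16 and CT20. Members moved together between libraries, so counts of names by sign, here and in retina, are not counts of independent results. Between replicates, a library's median log2 CPM over the names had a pooled SD of 0.084 in pineal and 0.055 in retina. In the retina 55 of 66 names were above 0, with a median of 0.044, where 50.7% of all tested transcripts were above 0 with a median of 0.00. That retina median was 0.027 without replicate 1 of CT20, 0.028 without replicate 3 of CT16, 0.070 without replicate 3 of CT20, and 0.022 with 47 names above 0 for CT12, CT16 and CT20 against CT0, CT4 and CT8. In retina 0 of 93 member transcripts were called higher and 0 lower at night by edgeR, where 0.281% and 0.481% of all were. An unadjusted p below 0.05 was found for 16 members, where 9.56% of all tested transcripts had such a p. DESeq2 called 1 member higher, RPLP1, and 2 lower, transcripts of RPL7A and RPS4, where it called 100 and 180 of all 14956. A second transcript of RPL7A and one of RPS4 were at 0 in 9 and 7 of the retina libraries. With counts summed per gene 0 members were called by edgeR.

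**Figure D3:**
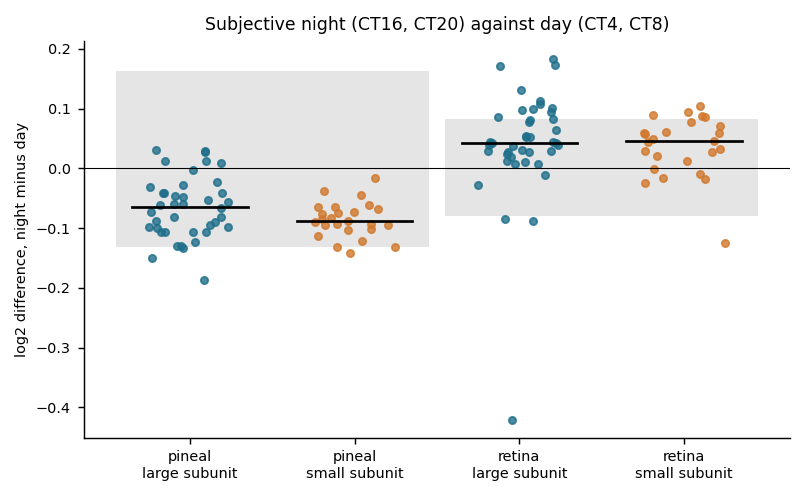
Points are names, placed by the log2 difference of subjective night (CT16, CT20) minus day (CT4, CT8) on the vertical axis, in columns by tissue and subunit (blue large, orange small); black lines are medians and grey bands hold the middle 50% of all tested transcripts of that tissue. Most pineal points lie below 0, most retina points above 0, and all lie between -0.19 and 0.18 except RPL3L in retina, at -0.42.

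The members moved together between pineal libraries. Among 64 member transcripts of at least 100 CPM, Pearson's r of log2 CPM across the 18 libraries had a median of 0.70 over 2016 pairs, of which 2010 were above 0; in retina the median was 0.38 over 1378 pairs. As libraries share a scaling, these are descriptions. The members' median coefficient of variation was 7.21% in pineal and 5.47% in retina, beside 8.38% and 5.96% for other transcripts of that level. The lower quartile was 6.1% and 4.7% for members, beside 5.6% and 4.7% for the others. RPL6 varied least in pineal (4.44%) and RPL24 least in retina (3.43%). Most variable were a transcript of RPS3 in pineal (15.8%) and of RPS14 in retina (10.4%).

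By time, the summed pineal share was highest at CT4, where the 3 libraries stood at 2.56, 2.43 and 2.62%, and stood at 2.18, 2.28 and 2.36% at CT8, with no overlap between these neighbouring times. The means at CT8, CT16 and CT20 (2.27, 2.30 and 2.31%) differed by less than the spread between libraries, and on the TMM scale the lowest mean sum was at CT20 (22470 CPM, against 23072 at CT8). On that scale the libraries of CT4 (from 23975 CPM) and CT8 (up to 24122) overlapped. At CT12 the libraries stood at 2.22, 2.58 and 2.50%, spanning nearly the whole range of the tissue. By mean log2 CPM 51 of 65 names were highest at CT4, where 18.3% of all tested transcripts were, and 45 were lowest at CT20, where 15.9% were. The counts rest on few libraries: without replicate 1 of CT12 the first fell to 26, without replicate 1 of CT20 the second fell to 20, and without the 3 libraries lowest in TTR they were 12 and 21. In retina 31 of 66 names were highest at CT20, where 14.6% of all tested transcripts were. That count of names became 13 without replicate 2 of CT20 and 52 without its replicate 3.

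Leukocyte genes moved with the family in the pineal gland. Across the 18 pineal libraries the members' mean log2 CPM had a Pearson's r of 0.90 and a Spearman's rho of 0.86 with the log2 sum of PTPRC, CSF1R and CD3E; r was 0.83 without the 2 libraries farthest from the median of that sum, 0.92 without the 3 lowest in TTR and 0.87 for deviations from the means of each time. All 65 names taken singly had an r above 0. The same was so for the list of dividing cells and for that of choroid plexus and ependyma, so this was not particular to leukocyte genes. The leukocyte sum was 211 ± 34.5 CPM (SD, n = 6) at night, from 152.5 to 245, and 273 ± 69.7 CPM by day, from 187 to 361. In retina the same r was -0.21, with a sum of 51.0 ± 7.62 CPM at night and 58.6 ± 6.52 CPM by day. The retina sum was nearly all CSF1R, with a mean of 54.1 CPM out of 56.2, against 135.8 out of 259.9 CPM in pineal. The 2 values of r thus rest on different mixes of the 3 genes. For the other 8 marker lists the pineal r ran from -0.62 (Müller glia list) to 0.60 (dividing cells). The pineal sum of the Müller glia list was mostly RLBP1, with a mean of 523 out of 835.5 CPM. The part of these cells in the pineal differences between night and day was not tested.

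**Figure D4:**
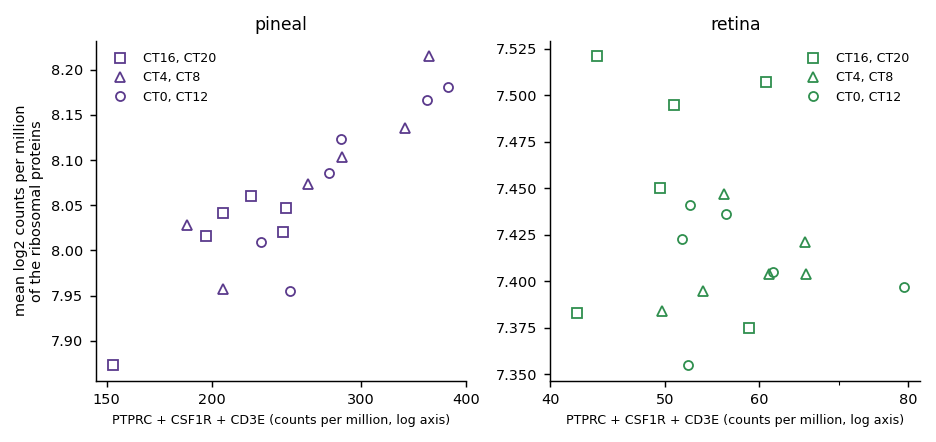
Each symbol is a library, placed by the summed level of the leukocyte genes PTPRC, CSF1R and CD3E (CPM, log axis) and by the mean log2 CPM of the ribosomal proteins (vertical axis), in pineal (left) and retina (right), with squares for CT16 and CT20, triangles for CT4 and CT8 and circles for CT0 and CT12. Pineal libraries rise together from 152.5 to 380 CPM (r = 0.90), and retina libraries, from 42.2 to 79.4 CPM, show no such order (r = -0.21). In retina the sum is nearly all CSF1R (mean 54.1 of 56.2 CPM).

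Ranked over 10417 pineal transcripts of at least 10 CPM, those most like the members' mean were BLB1 (r = 0.95, a class II major histocompatibility chain), LAPTM5 (0.93, a lysosomal protein of blood cells), II (0.93, the class II invariant chain), ADAM33 (0.93) and DMA (0.93, a class II peptide loader), over 18 libraries. In retina the first of 10086 was GNB2L1 (r = 0.86), followed by OSBPL10, LRRN2, MLYCD and LATS1 at 0.75 to 0.70. GNB2L1, also named RACK1, is a scaffold bound to the small subunit and was no member by name. It stood at 583 ± 36.4 CPM in pineal and 400 ± 28.0 in retina, a log2 difference of 0.54 ± 0.03 (edgeR adjusted p = 1.5e-15), and was called in no test over time.

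Tissues were compared in the shape of their curves by the interaction of tissue with the 24 h curve. Of 94 member transcripts 2, RPS12 and RPS10, were called (edgeR, adjusted p below 0.05), where 12.1% of all 16831 were. RPS12, a small-subunit protein (chromosome 3, 58700483 to 58704444), stood in pineal at 388, 429 and 424 CPM at CT0, at 430, 401 and 468 at CT4 and at 387, 416 and 424 at CT8. It stood there at 376, 441 and 425 CPM at CT12, at 393, 387 and 370 at CT16 and at 353, 402 and 395 at CT20. Day libraries thus tended above night libraries, with overlap.

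In retina RPS12 stood at 258, 257 and 251 CPM at CT0, at 272, 276 and 250 at CT4 and at 250, 274 and 256 at CT8. Later it stood at 251, 280 and 270 CPM at CT12, at 271, 281 and 283 at CT16 and at 301, 297 and 272 at CT20. Values at CT16 and CT20 lay above all those of CT0. RPS12 was called rhythmic in neither tissue by itself. Its fitted curves peaked at CT 5.335 in pineal and CT 17.7 in retina. Their difference had a size of 0.14 on the log2 scale (edgeR adjusted p = 0.035). For RPS10 the retina libraries stood at 288, 296 and 281 CPM at CT0, at 255, 250 and 259 at CT4 and at 277, 271 and 254 at CT20. The fitted curves of RPS10, called rhythmic in pineal only, peaked at CT 4.36 and CT 21.4, with a difference of 0.12 (edgeR adjusted p = 0.036). Neither call held without the 3 pineal libraries lowest in TTR (adjusted p = 0.060 and 0.093) or with time as a factor (0.085 and 0.094).

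**Figure D5:**
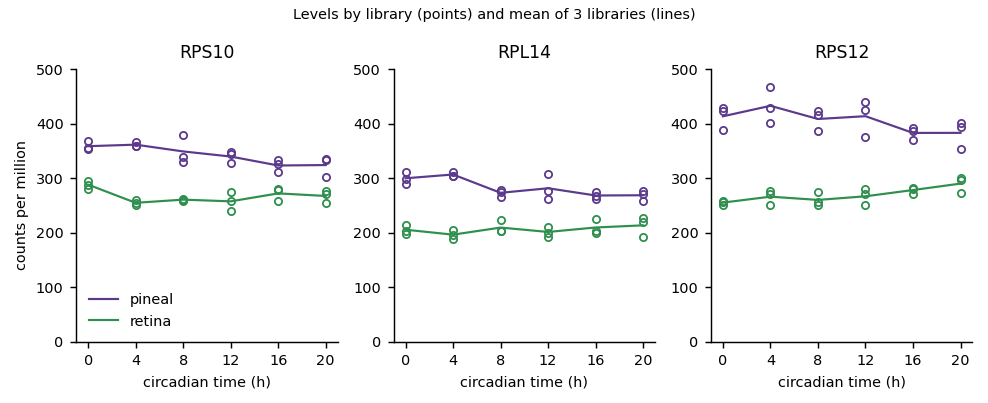
Levels of RPS10, RPL14 and RPS12 (CPM, vertical axis) are plotted against circadian time (h) for pineal (purple) and retina (green); open points are libraries and lines join means of 3. Pineal values of RPS10 fall from 354 to 368 at CT0 to 302 to 336 at CT20, and retina values of RPS12 rise from 251 to 258 to 272 to 301.

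Next by p for a difference of curves were RPL12, RPL27A and RPL14, with sizes of 0.14, 0.15 and 0.11 and edgeR adjusted p of 0.086, 0.089 and 0.11. In retina the night-minus-day difference of RPL12 was 0.13 ± 0.05 and that of RPL27A 0.11 ± 0.04, with 4 of 6 night libraries above all day libraries in both, and in pineal they were -0.10 ± 0.06 and -0.12 ± 0.07. RPLP1 in retina had the largest difference upwards at night of a name, 0.18 ± 0.05, from 304 to 391 CPM at night and from 295 to 342 CPM by day (adjusted p = 0.15).

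Other genes of translation were read from lists, each by its most counted transcript, beside 43.2% higher, 39.5% lower and a median of 0.04 over all tested transcripts. Some genes stand in more than 1 list. Of 10 measured mRNAs outside the family that are known from mammals to carry the pyrimidine start, all 10 were higher in pineal, with a median log2 difference of 0.68, among them EEF1B2 (0.88 ± 0.03) and EIF3E (0.77 ± 0.03). Among 65 mitochondrial ribosomal proteins 38 were higher and 13 lower in pineal, with a median of 0.14. Of 46 genes of ribosome assembly 27 were higher and 5 lower, with NPM1, a nucleolar chaperone, at 669 ± 50.03 against 232 ± 11.0 CPM (1.52 ± 0.03) and a median of 0.22. Initiation factors had 21 of 33 higher and 8 lower (median 0.16), elongation and termination factors 5 of 9 higher and 4 lower (median 0.11), and the regulators around mTOR 7 of 17 higher and 6 lower (median -0.02). The difference between these lists and the family was not tested.

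Over the pineal day some of these genes had larger fitted amplitudes than the 0.10 that no ribosomal protein name exceeded. EIF4G2, a translation initiation factor, had an amplitude of 0.17 ± 0.02 (edgeR adjusted p = 1.7e-05) and fell at night by 0.26 on the log2 scale (adjusted p = 4.5e-06). EEF1A2, the elongation factor of neurons and muscle in mammals, had an amplitude of 0.28 ± 0.03 and a night-minus-day difference of -0.37 ± 0.04 (adjusted p = 4.2e-05). NCL, nucleolin, peaked at CT 23.95 with an amplitude of 0.14 ± 0.02 (adjusted p = 0.00026). RPTOR, the scaffold subunit of mTOR complex 1, ran the other way, with a peak at CT 16.8, an amplitude of 0.14 ± 0.04 (adjusted p = 0.037) and a night-minus-day difference of 0.24 ± 0.07 (adjusted p = 0.024). MYCN, a transcription factor, had an amplitude of 0.17 ± 0.04 (adjusted p = 0.031). The other called regulators, EIF4EBP1, the translation repressor that mTOR inactivates, and LARP1, had amplitudes of 0.08 and 0.09 (adjusted p = 0.012 and 0.045). In pineal rhythm 13 of 46 assembly genes, 7 of 33 initiation factors, 3 of 9 elongation and termination factors, 4 of 17 regulators, 2 of 10 pyrimidine-start mRNAs and 4 of 65 mitochondrial ribosomal proteins were called. Over all tested transcripts the share called was 21.1%, against 28.3, 21.2, 33.3, 23.5, 20 and 6.15% of these lists in turn. In retina the counts were 1, 0, 1, 0, 2 and 0, where 6.29% of all were called. As lists share genes, these are not all separate genes. EEF1D in retina and EEF2 in pineal are counted both as elongation factors and as pyrimidine-start mRNAs. EIF3H in pineal is counted both as an initiation factor and as a pyrimidine-start mRNA.

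The names are scattered over the genome as the deposited tables place them, with at most 9 of 66 on a chromosome (chromosome 1). On the Z sex chromosome lie RPS6, RPS23, RPL37 and RPL17L. Their coefficients of variation across libraries, 5.52 to 6.68% in pineal and 3.54 to 4.97% in retina, were not above the family's medians of 7.21% and 5.47%. Their log2 differences of pineal minus retina were all above the family's median of 0.47. They were 0.81 for RPS6, 0.85 for RPS23, 1.11 for RPL37 and 0.60 for RPL17L. A part of sex in these values was not tested.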

How the data were processed

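TRIzol extraction, RNeasy clean-up and standard Illumina library protocols are given per the labels. Trimmomatic, TopHat and Cufflinks are named without versions, per the submitters' processing notes; neither genome build nor strandedness is given in the sources used here. Whether reads of overlapping antisense genes were told apart is therefore not known. The authors deposited estimated counts per Ensembl transcript, of which 68.1% are whole numbers (46.1% for members, within 1e-06). They also deposited FPKM values, which divide counts by transcript length and library size. Here the estimated counts were rounded and tested with edgeR 4.0.16 in R 4.3.3 (TMM, filterByExpr), within a tissue for time and over 36 libraries between tissues. The rhythm test was an F test of 2 coefficients, cosine and sine over 24 h. Benjamini-Hochberg adjustment covered every tested transcript, with a threshold of 0.05. CPM were TMM-scaled over 36 libraries, and amplitudes come from least squares on log2 CPM (prior count 2). Alternatives were DESeq2 1.42.0, limma 3.58.1 on log2(FPKM + 1) and log2(FPKM + 0.1) with or without a minimum mean FPKM of 1, other scalings, no filter, sums per gene, a replicate block and each library left out. Scripts were tested on simulated data. The planted effects were all larger than the family's median amplitudes and night-minus-day differences, so recovery of effects that small was not tested. Tables and plots used pandas 2.3.3 with numpy 2.4.6 under Python 3.11.15, and matplotlib 3.10.9.

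Named are members called over time or for a difference of curves, or else the 5 of smallest p; the 10 largest called tissue differences in each direction; the 5 highest and lowest FPKM per tissue; copies; RPLP0, RPLP1, RPLP2, RPSA, RPS6 and RPS27A; the 5 transcripts most like the members' mean; and up to 4 called genes a list. RPL4, RPL26, RPL36, RPL6, RPL24, RPS3, RPS14, RPS3A, RPL7A, RPS4 and the Z-linked members beyond that were chosen after their values were seen. Members and lists were chosen with earlier results of these data known. No pair of libraries within a group looked like 1 library deposited again (chi-square over its degrees of freedom 4.78 to 31.9 over 36 pairs); this does not show that they are independent samples. Counts of names by their highest or lowest time, and medians under the alternatives, were added after seeing the data. Sequences were not used here. Single values of 1 member and of 1 marker list are not reported here.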

Additional observations from a re-analysis of the deposited data

Results flagged for a closer look

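RPS12 and RPS10 differed between the tissues in their 24 h curves by the interaction test. The size of the difference of the curves on the log2 scale was 0.143 for RPS12 (edgeR adjusted p = 0.035) and 0.115 for RPS10 (edgeR adjusted p = 0.036). RPS12 ran from 353 to 468 CPM over the pineal libraries and from 250 to 301 CPM over the retina libraries, and RPS10 from 302 to 379 CPM and from 240 to 296 CPM. Leaving out any of 8 of the 36 libraries lost the RPS12 call (adjusted p of 0.051 to 0.076), and any of 10 lost the RPS10 call (0.053 to 0.076). Both calls were also lost without the 3 pineal libraries lowest in TTR and with time as a factor.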

How the results depend on the processing

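The pineal excess held under every alternative run: 81 to 82 member transcripts were called higher when single libraries were left out, and the 3 called lower stayed 3. On the FPKM scale with limma the lower calls became 0 with a pseudocount of 1 or 0.1 and 1, RPL3L, without a filter. With the filter RPL3L fell under the minimum mean FPKM of 1 and was not tested. It was called lower in all 45 settings that tested it. RPL19 and RPS29 turned to 0.11 and 0.017 on the log2 scale with each limma setting, and the cause of that was not tested. The few calls over time moved more, and calls over all tested transcripts moved as well. For pineal rhythm 21.1% of all were called, 25.5% with DESeq2, 28.6% with counts summed per gene and 17.0 to 22.6% with limma. In retina 6.29% were called, 8.49% with DESeq2 and 3.82 to 5.47% with limma. Lower at night in pineal were 1070 of all 16070, 1268 with DESeq2 and 1304 of 13042 with counts summed per gene. Without the 3 libraries lowest in TTR 896 of 16742 were. Rhythmic members in pineal were 2, and 4 with each limma setting, and 3 with DESeq2, with the replicate block (RPL19 added to both) and with both tissues in 1 fit. Without a filter, or without the 3 libraries lowest in TTR, the 2 were RPS10 and a minor RPL17L transcript in place of RPL14; that transcript, at 0 in 14 of 18 pineal libraries, did not pass the filter with all pineal libraries and was called in most fits that left out 1 library. In retina rhythmic members were 0, and 1 with DESeq2 and each limma setting. Members lower at night in pineal were 1, RPS10, but 6 with DESeq2, 2 with each limma setting and 3 with counts summed per gene. Without the 3 libraries lowest in TTR they were 2, of RPL14 and RPL7A, and RPS10 was not called. For CT12, CT16 and CT20 against CT0, CT4 and CT8 they were 2, of RPL14 and RPS10. With both tissues in 1 fit they were 4, of RPL38, RPS10, RPS12 and RPS3. In retina DESeq2 gave 1 higher (RPLP1) and 2 lower (of RPL7A and RPS4) at night. Members called for a difference of curves were 2 of 94, where 12.1% of all 16831 tested transcripts were called. They were 1 with total counts only, 4 with each limma setting, 0 without the 3 libraries lowest in TTR and 1 with time as a factor (RPS3). For these alternatives the shares over all tested transcripts are not given here, so the moves are not set against them. Leaving out single libraries gave 1 to 5 rhythmic members in pineal, 0 to 1 in retina, 0 to 3 lower at night in pineal, 0 to 1 higher at night in retina and 0 to 3 differences of curves. The names highest at CT4 in pineal were 26 to 54, those lowest at CT20 20 to 57 and those highest at CT20 in retina 13 to 52, and the first pair fell to 12 and 21 without the 3 libraries lowest in TTR. With a replicate block 3 members were lower at night in pineal. Whether replicate numbers pair the libraries is not given by the labels. Same-numbered pineal libraries had a median correlation of deviations of 0.0012, with 3 of 45 pairs above 0.1 and the highest at 0.26. In retina 0 of 45 pairs were above 0.1. These values cannot show that same-numbered libraries shared no bird, day or batch. For night against day the fit of both tissues is itself the fit behind the tissue comparison. For rhythm it holds a curve for each tissue, as in the test for a difference of curves. Leaving out pineal libraries does not apply to retina results. Depth limits RPL3L, with at most 20 counts a library.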
